A study of Drosophila melanogaster with 2 samples.

Results

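This account follows brat, its TRIM-NHL relatives mei-P26 and wech, and the RNA-binding partner pum in sorted stem cell lineages of the fly larval brain. The 5 gene symbols brat, mei-P26, wech, tn and pum were looked up in the gene table of the series. All but tn were listed there, which left 4 genes among the 14284 in the count tables. The genes were taken by symbol and not by a measured value, but earlier results of these data were known when they were chosen. A gene listed as abba, a symbol that RefSeq gives as a synonym of tn, had 5 counts in the brat RNAi library and 10 in the control library. It stayed outside all comparisons, since those counts are too few and the identifier itself was not matched.

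The tested library came from Drosophila melanogaster larvae with brat RNAi (VDRC TID 105054), and the other from control larvae of the same cross without it. Larvae of both groups carried the drivers wor-Gal4 and asense-Gal4, spelled here as the labels spell them, with UAS-dicer2, which strengthens RNAi, the membrane marker UAS-CD8::GFP and tub-Gal80ts. The tub-Gal80ts repressor holds Gal4, and with it the RNAi, off at 18 °C. Larvae were moved to 29 °C by the third instar, and brains were taken 24 h later, late in that instar. GFP-labelled type II neuroblasts, a class of neural stem cells, and their 24 h progeny were sorted and polyA RNA was sequenced. Type II neuroblasts lack asense (ase), and whether the labels name the asense-Gal4 element rightly could not be checked. Each group was 1 library, and the labels do not give the number of brains behind it. No difference below therefore has a replicate check, no test was possible, and every value describes these 2 libraries.

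Brat, Mei-P26, Wech and Thin (the product of tn) share a C-terminal NHL domain, a beta-propeller that in Brat binds RNA. Brat forms a repressor complex with Pumilio and Nanos on hunchback mRNA in the early embryo. In dividing neuroblasts the adaptor Miranda carries Brat into the daughter cell, where it blocks self-renewal, and loss of brat lets type II lineages overgrow. Mei-P26 restrains growth and self-renewal in the ovarian germline, Wech links integrins to the cytoskeleton in muscle, and Thin maintains muscle fibres. Pumilio binds a short element in the 3' untranslated region of its target mRNAs.

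Of the 4 genes, brat was lower and mei-P26 higher in the brat RNAi library, while wech and pum were slightly higher, by an amount that fell within counting error once ratios were corrected for transcript length and level. The targeted gene, brat (FBgn0010300), had 6312 counts in the brat RNAi library and 12210 in the control library. Scaled to 1000000 gene counts per library (CPM), that is 414 CPM with brat RNAi and 737 CPM in the control. After division by size factors, the log2 ratio (here always brat RNAi over control) was -0.69 with a 95% counting interval of -0.73 to -0.65. The level with brat RNAi was thus 38.0% lower, and the direction matched the labels. Any reads from the hairpin itself would count as brat, and their part in the value was not tested.

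The relative mei-P26 (FBgn0026206) had 3598 counts in the brat RNAi library and 1942 in the control library, or 236 CPM with brat RNAi and 117 CPM in the control. Its log2 ratio was 1.15 (1.07 to 1.23), a 2.22-fold higher level with brat RNAi. It was the single member of the 4 that reached a 2-fold difference with an interval that excluded 0, and with that correction it stood at 0.74, under 2-fold. Among all 9142 measured genes, those with at least 20 counts over both libraries, 1.15% were that far higher, 4.48% that far lower and 5.63% that far apart in either direction. None of the 4 genes was lower by 2-fold or more.

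The other two genes lay closer to 0. The integrin adaptor gene wech (FBgn0259745) had 3759 counts in the brat RNAi library and 3643 in the control library, with a log2 ratio of 0.31 (0.24 to 0.37). For pum (FBgn0003165) the counts were 3135 with brat RNAi and 2825 in the control, with a log2 ratio of 0.41 (0.34 to 0.49). Both lay inside the bulk of the measured genes, since 1944 genes had a higher ratio than wech and 1313 a higher one than pum. In the authors' deposited table, whose fold changes run control over brat RNAi, the adjusted p was 0.150 for mei-P26 and 1 for brat, wech and pum, and those p-values compare 1 library with 1.

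**Figure D1:**
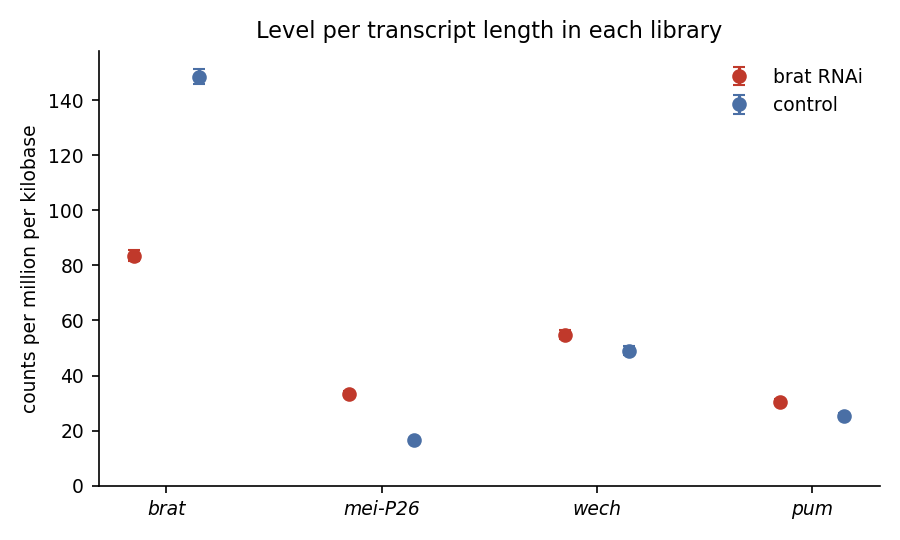
Level of each gene in CPM per kilobase of median transcript length (vertical axis), with brat RNAi left of control and 95% Poisson counting intervals as bars. The gene brat stands at 83.5 with brat RNAi and 148.5 in the control, and mei-P26 at 33.4 and 16.6, while wech and pum differ little between the libraries.

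Per transcript length, brat was the most abundant of the 4 mRNAs in both libraries. It stood at 83.5 CPM per kilobase in the brat RNAi library and 148.5 in the control library. The next was wech, at 54.9 with brat RNAi and 48.9 in the control. With brat RNAi, mei-P26 (33.4) and pum (30.6) followed in that order, and in the control the order of these 2 was turned, with mei-P26 at 16.6 and pum at 25.3. All neighbours in both orders differed by more than their 95% Poisson intervals, which cover counting error only. The lengths are of a later annotation than the gene models used for counting, so all levels per length are approximate.

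The place of mei-P26 depends on which transcript is taken as its length. In the later annotation its 6 transcripts run from 4966 to 23041 bases, with a 3' untranslated region of up to 18494 bases. Whether the models used for counting held the longest transcripts was not checked. With the longest transcript of every gene, mei-P26 was below pum in both libraries, at 10.2 against 20.1 CPM per kilobase with brat RNAi and 5.09 against 16.7 in the control. With the shortest it was above pum with brat RNAi (47.6 and 44.2) and below it in the control (23.6 and 36.6). The order of brat and wech was the same with the shortest and the longest transcripts, although with the longest they stood at 34.3 and 32.5 in the brat RNAi library. Seen against the 8897 measured genes with a known transcript length, brat was higher per length than 88.9% of them with brat RNAi and than 93.7% in the control. For mei-P26 those shares were 71.4% with brat RNAi and 51.9% in the control.

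The balance between the relatives can be read without any scaling of the libraries, because a scaling factor is shared by all genes of a library. There were 0.570 counts of mei-P26 for each count of brat in the brat RNAi library, and 0.159 in the control library. The log2 ratio of mei-P26 thus exceeded that of brat by 1.84 (1.75 to 1.93), a 3.58-fold shift between these genes. The shift relative to brat was 1.996-fold (1.89 to 2.11) for wech and 2.15-fold (2.02 to 2.28) for pum. In counts, pum stood at 0.497 per count of brat with brat RNAi and at 0.231 in the control.

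All 6 pairs among the 4 genes were compared in this way. Relative to mei-P26, wech was lower by a log2 difference of -0.84 (-0.95 to -0.74) and pum by -0.74 (-0.85 to -0.63). The difference between pum and wech was small, 0.10 (0.01 to 0.20). These intervals come from the exact conditional distribution of the counts and hold no error between animals or preparations.

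**Figure D2:**
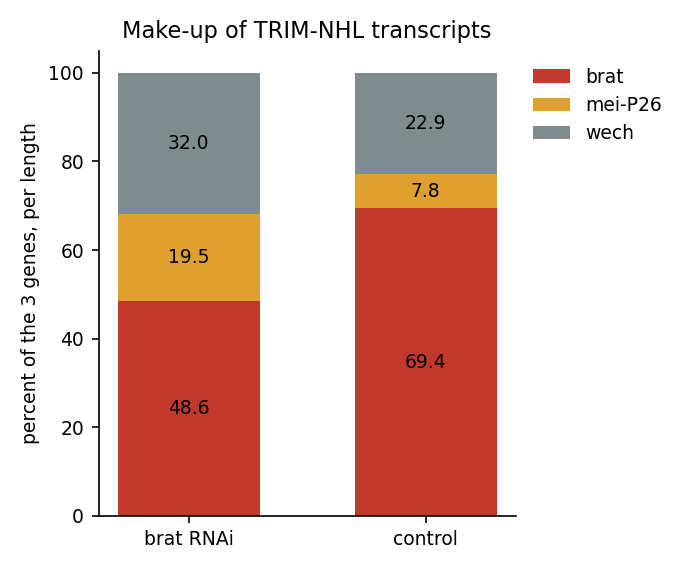
Share of brat, mei-P26 and wech in their sum per median transcript length, in percent (vertical axis), for the brat RNAi library on the left and the control library on the right. The share of mei-P26 is 19.5% with brat RNAi and 7.8% in the control, and that of brat 48.6% and 69.4%.

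Summed over brat, mei-P26 and wech, the TRIM-NHL counts were 13669 in the brat RNAi library and 17795 in the control library, a log2 ratio of -0.12 (-0.15 to -0.09) after scaling. Per median transcript length the sum stood at -0.18, 11.5% lower with brat RNAi. Before correction for length and level, the sum was thus less apart than brat itself. That correction was not applied to the sum. Of the summed counts, brat made up 46.2% (45.3 to 47.0) with brat RNAi and 68.6% (67.9 to 69.3) in the control. The share of mei-P26 was 26.3% (25.6 to 27.1) with brat RNAi and 10.9% (10.5 to 11.4) in the control, and that of wech 27.5% and 20.5%. Per median transcript length, mei-P26 held 19.5% with brat RNAi and 7.75% in the control, and brat 48.6% and 69.4%. With the longest transcript of each gene the share of mei-P26 was 13.3% with brat RNAi and 5.35% in the control. The intervals of these shares are exact Clopper-Pearson intervals.

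The ratio in this series followed transcript length and level, which matters for genes as long and abundant as these. The median log2 ratio was 0.32 among the 890 genes in the top decile of length, where brat, mei-P26 and pum lie, and 0.22 in the decile below it, where wech lies. In the top decile of level it was 0.20. Set against genes of its own length, brat stood lower still, since 3.48% of its length decile had a lower ratio. In its level decile 0.112% had one, which is 1 gene of 890. For mei-P26, 99.2% of its length decile and 99.7% of its level decile had a lower ratio. For wech and pum, 61.3% and 64.8% of their length deciles had one.

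**Figure D3:**
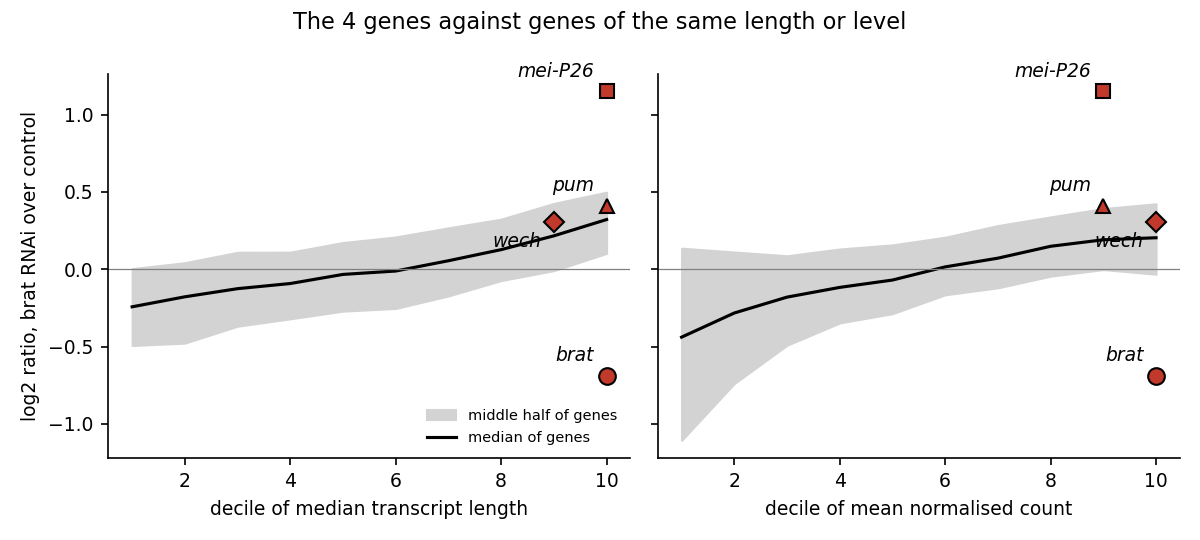
Log2 ratio of brat RNAi over control (vertical axis) by decile of median transcript length (left) and of mean normalised count (right). The line is the median and the band the 25th to 75th percentile of genes. The gene brat lies below and mei-P26 above the band in both panels, while wech lies within it in both and pum within it by length and just above it by level.

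After subtraction of the median of genes of like length and then of like level, the log2 ratio was -1.14 for brat and 0.74 for mei-P26. Under this correction brat passed the 2-fold line, 54.6% lower with brat RNAi, and mei-P26 no longer did. The same correction put wech at -0.036 (-0.10 to 0.03) and pum at 0.0048 (-0.07 to 0.08), so that neither differed by more than counting error. The gap between mei-P26 and brat was 1.88 after it. Scaling by total gene counts instead lowered every ratio by 0.14, and mei-P26 stayed at 1.01.

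**Figure D4:**
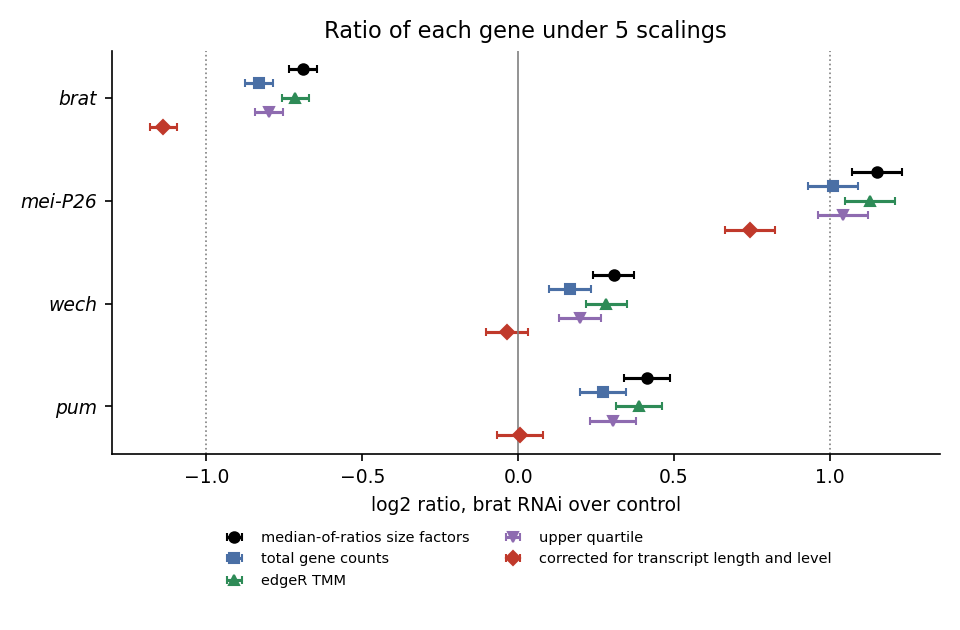
Log2 ratio of brat RNAi over control (horizontal axis) for each gene under the 5 ways of scaling named in the legend, with 95% counting intervals as bars and dotted lines at 2-fold. The gene brat lies below 0 and mei-P26 above 0 under all 5, while wech and pum reach 0 under the correction for transcript length and level.

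Over all 9142 measured genes, 809 had a lower ratio than brat and 78 a higher one than mei-P26. After the correction for length and level, 227 of 8897 genes lay below brat and 390 above mei-P26. Among abundant genes the ratios of brat and mei-P26 were near the ends of the range. Of the 2958 genes whose normalised count averaged 1000 or more, 5 had a lower ratio than brat and 9 a higher one than mei-P26. Those below brat, named after their values were seen, were the stress-responsive noncoding RNA gene Hsromega (-0.90), the insulin-like peptide gene Ilp2 (-0.89), the neuropeptide gene hug (-0.80), the odorant-binding protein gene Obp99a (-0.73) and CG12239 (-0.71). Their median transcript lengths ran from 585.5 to 2776 bases, against 4963 bases for brat. Of the 2958, 0 were lower by 2-fold or more and 25 higher by that much. Highest of the 9 above mei-P26 was w (4.13), with 25973 counts with brat RNAi and 1776 in the control. The others were CG16879 (1.58), CG17341 (1.51), Eip93F (1.42), ptr (1.26), the neuroblast factor gene grh (1.25), Treh (1.20), l(2)tid (1.20) and CG13185 (1.17). Whether any of the reads counted as w came from a transgene was not tested.

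The gene models bear on which reads could be counted. In the reference annotation, brat lies on chromosome arm 2L with 5 transcripts, mei-P26 on X, wech on 2R with 5 transcripts and pum on 3R with 8. In these models no exon of mei-P26, wech or pum overlapped another gene. Exons of brat overlapped 3 genes on the opposite strand, among them CG17568 with 83 counts in the brat RNAi library and 142 in the control library, and Polr1D with 224 and 225. The remaining one, lncRNA:CR44977, was not among the counted genes. Whether the counting used strand is not given, so reads in those overlaps cannot be assigned. Their part in the value of brat was not tested. The X chromosome, which carries mei-P26, had a median log2 ratio of 0.04 over 1509 measured genes, and arm 2L, which carries brat, had -0.04 over 1567.

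By level and ratio together, the measured genes nearest to mei-P26 over the 2 libraries were Src64B, a Src family kinase gene (3620 counts with brat RNAi and 2007 in the control), and dm, the fly Myc gene (3478 and 1896). They lay at distances of 0.05 and 0.06 in log2 normalised counts. The nearest to pum were shi, the dynamin gene, at 0.01 and tai at 0.04, and to wech Atx2 and CG43674, both at 0.03. No gene lay that near to brat. Its nearest, the cofilin gene tsr and the ribosomal protein gene RpL29, were at 0.37 and 0.39 and had log2 ratios of -0.36 and -0.27. The mean normalised count of brat was 9031, against a median of 5781 over the top decile of level. The part of that high level in its distances was not tested.

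The partners with which Brat and Pumilio act in repression ran both ways. The 8 partners, all measured, had a median log2 ratio of 0.03, against 0.00 over all 9142 measured genes. Of the 8, 0 were higher by 2-fold or more and 1 lower by that much, against 1.15% and 4.48% of all measured genes. The lower partner was nos, which encodes the Pumilio partner Nanos, with 4 counts in the brat RNAi library and 46 in the control library (-3.26, -5.20 to -1.81). The cap-binding repressor gene 4EHP had 973 counts with brat RNAi and 904 in the control (0.37), and cup, which encodes a protein that binds eIF4E, had 133 and 275 (-0.79). The adaptor gene mira was by far the most abundant partner, with 29722 counts with brat RNAi and 26290 in the control (0.44). The microRNA effector gene AGO1 had 7171 and 5868 (0.55). After the correction for length and level AGO1 was at 0.10, mira at 0.19, 4EHP at 0.34 and cup at -0.91. The median of the 8 was then -0.07.

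Deadenylase genes had small ratios in both directions. The 9 genes of the CCR4-NOT complex, which shortens poly(A) tails, had a median of 0.08 and none was 2-fold apart. The scaffold gene Not1 was highest at 0.46, CG13567 lowest at -0.52 (308 counts with brat RNAi and 529 in the control) and Rcd-1 at -0.22, and the catalytic subunits twin and Pop2, counted among the 8 partners as well, were at 0.08 and -0.02.

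Of 9 mRNAs reported as targets of Brat or Pumilio, 8 were measured, with a median log2 ratio of 0.27. The list had 1 gene at least 2-fold higher, dm at 1.14 (1.06 to 1.22, and 0.73 after correction, under 2-fold). It had 1 at least 2-fold lower, hb, the embryonic target of the complex, with 4 counts with brat RNAi and 19 in the control (-1.99). Over all measured genes 1.15% were that far higher and 4.48% that far lower. The neuroblast factor gene dpn (0.98) and the gene of the activator Zelda, listed as vfl (0.85), were higher but under 2-fold, and stood at 0.90 and 0.41 after correction. The cyclin gene CycB was at 0.26, the sodium channel gene para at 0.27, Mad, a transducer of BMP signals, at 0.23 and the cap-binding gene eIF-4E at 0.08. After the correction for length and level the median of the list was 0.07. The bicoid gene bcd had 0 counts in both libraries. An mRNA ratio does not measure translation.

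Partners of Mei-P26 from the germline gave a mixed picture beside the higher mei-P26. Of 6 measured genes, 0 were higher by 2-fold or more and 2 lower by that much, namely nos and bam, a differentiation factor of the germline, with 31 counts with brat RNAi and 89 in the control (-1.26, -1.90 to -0.66; -0.97 after correction). Over all measured genes 1.15% were that far higher and 4.48% that far lower. The list's median was 0.11. The sex determination gene Sxl was at 0.20 and the germline helicase gene vas, with 175 counts with brat RNAi and 174 in the control, at 0.27.

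Most markers of the female germline were lower in the brat RNAi library, where mei-P26 was higher. Their summed level was 50.5 CPM with brat RNAi and 120 CPM in the control, and without dhd, a thioredoxin gene, it was 50.2 CPM with brat RNAi and 62.1 CPM in the control. Of 10 measured, 7 were at least 2-fold lower (6 after the correction, without bam), among them dhd (4 counts with brat RNAi and 958 in the control), BicC (2 and 87) and yl (11 and 211). Over all measured genes 4.48% were that far lower. The gene osk was at 0 counts with brat RNAi and at 33 in the control. With the brat RNAi library set to a floor of 3 counts, osk was 9.18-fold lower. Its counting interval reaches -2.82 on the log2 scale, a smaller difference. The other 3 markers were not lower, with orb, which encodes an oocyte translation regulator, at 0.99 (460 counts with brat RNAi and 277 in the control), vas at 0.27 and bgcn at 0.02. The median of the 10 was -2.54, or -2.50 with osk at the floor of 3 counts. The part of this list in the low values of nos and bam, both of which belong to it, was not tested.

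The adhesion partners of Wech ran both ways. The 10 genes of the integrin adhesion complex had a median of 0.04, with 5 above 0 and none 2-fold apart. The talin gene rhea was at 0.30 and the integrin beta subunit gene mys at 0.14, beside 0.31 for wech. The lowest were the tensin gene by at -0.65, the vinculin gene Vinc at -0.37 and the integrin alpha subunit gene if at -0.34. After the correction for length and level, rhea was at -0.15, mys at -0.16 and wech at -0.036. By the same correction, by was at -0.67, Vinc at -0.57 and if at -0.68, and the median of the 10 was -0.09. The remaining TRIM and Puf protein genes measured here were bon at 0.51, the gene listed as pen, currently peng, at 0.44 and Trim9 at -0.50. Trim9 had 110 counts with brat RNAi and 186 in the control. After the same correction bon was at 0.06, pen at 0.32 and Trim9 at -0.53.

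Muscle, where wech and tn are best known, left few reads. The 12 muscle markers summed to 26.9 CPM in the brat RNAi library and 45.6 CPM in the control library. Of the 10 measured, 7 lay 2-fold or more lower, such as Mlp60A (-2.27), Act57B (-1.41), Act87E (-1.40) and Mlc1 (-1.37). Over all measured genes 4.48% were that far lower. Scarce genes ran low in general, with median log2 ratios of -0.44 and -0.28 in the 2 lowest deciles of level. After the correction 4 of these 7 were still that far lower, without Mlc1 (-0.81), Mlc2 (-0.98) and Tm2 (-0.80). The titin-like gene sls, with 180 counts with brat RNAi and 141 in the control, ran the other way at 0.61, and bt was at 0.02. Of the 2 markers too scarce to be measured, wupA had 0 counts with brat RNAi and 19 in the control, and Mlp84B had 4 and 14. The gene wech was not lower beside them, at 247 CPM with brat RNAi and 220 in the control.

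**Figure D5:**
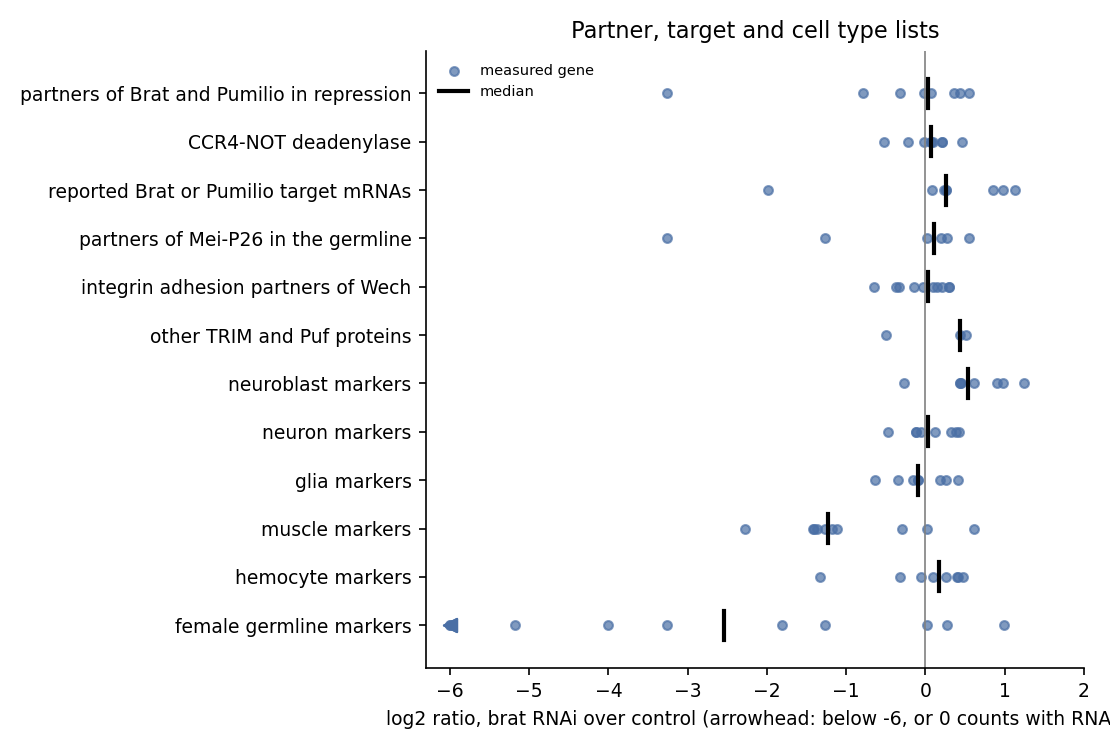
Log2 ratio of brat RNAi over control (horizontal axis) of every measured gene in the 12 lists (vertical axis), with the median of each list as a black bar and an arrowhead at the left edge for dhd, which lies below -6, and osk, which had 0 counts with brat RNAi. Muscle and female germline markers lie lowest, with medians of -1.22 and -2.54, and neuroblast markers highest at 0.54.

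Genes of neuroblasts and their early progeny were present in both libraries. The 8 neuroblast markers summed to 3817 CPM with brat RNAi and 2900 in the control, with a median log2 ratio of 0.54, or 0.32 after correction, and 1 of 8, grh, at least 2-fold higher (2.38-fold). Over all measured genes 1.15% were that far higher and 4.48% at least 2-fold lower. After the same correction grh was at 0.91 and none of the 8 was 2-fold apart. Beside mira, insc was at 0.46. The 8 include ase, which type II neuroblasts lack and their maturing progeny express. It had 1236 counts with brat RNAi and 1790 in the control and was the single member below 0, at -0.27. Neuron markers were also present, summing to 492 CPM with brat RNAi and 503 in the control with a median of 0.04, and elav and cac were at -0.12 and 0.39. Glia markers summed to 772 with brat RNAi and 800 in the control with a median of -0.09, with Eaat1 at 0.18 and nrv2 at -0.15. Hemocyte markers summed to 747 with brat RNAi and 672 in the control with a median of 0.17, and among them He was at least 2-fold lower (-1.32, and -0.82 after correction), Hml was at 0.48 and Cg25C at -0.06. The glia and hemocyte sums leaned on few genes. With brat RNAi, Eaat1 held 6191 of the 11757 glia counts and repo 108. Hml held 5039 of the 11385 hemocyte counts in that library, He 27 and NimC1 12. In sorted bulk samples such as these, fewer cells of a type and less RNA per cell cannot be told apart, for brat and mei-P26 as for the markers. The part of the higher neuroblast marker level in the values of brat, mei-P26, wech and pum was not tested.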

How the data were processed

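Read pairs per gene were taken as deposited. The authors deposited raw counts for each library and a table comparing them. The submitters' processing notes name DESeq 1.8.3, HTSeq, TopHat 1.4.1 and BWA 0.6.1, with no role for each. Build and strand setting were not given in the sources used here. Gene models are of FlyBase release 5.44, per the file headers. In the authors' deposited table, base means are normalised counts (a signal), beside an adjusted p-value and a log2 fold change that runs control over brat RNAi. With the sign turned, its 10987 finite log2 values differed by under 1e-06 from those of the counts.

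Gene counts summed to 15236504 in the brat RNAi and 16566265 in the control library. Read pairs assigned to no single gene, 27.2% and 22.7% of the tables, were left out. Ratios used median-of-ratios size factors (0.913 and 1.09) with 95% exact intervals, which cover counting error only. Called means a log2 ratio of at least 1 in size with an interval excluding 0. Median transcript lengths came from Ensembl BDGP6, which is a later build, so levels per length are approximate and no coordinates are printed. A length was found for 97.3% of measured genes. Computations used Python 3.11.15, scipy 1.17.1 and edgeR 4.0.16 (TMM factors only) and were tested on simulated data.

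The members and lists were chosen with earlier results of these data known. The text names the 4 genes, dpn and vfl, from each list up to 4 called genes with the largest ratios or else the 2 most abundant, and for each of the 4 genes the 2 nearest by Euclidean distance of log2 (normalised count + 0.5). Other list members, the abundant genes below brat and those above mei-P26 were named after their values were seen. No sequences are shown.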

Additional observations from a re-analysis of the deposited data

Results flagged for a closer look

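Read pairs that fell on no annotated feature and so enter no comparison made up 26.6% of the brat RNAi table and 22.0% of the control table. The share was larger than in the control, and with 1 library per group it has no replicate check. Its part in the values of brat and mei-P26 was not tested.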

How the results depend on the processing

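The direction of brat and of mei-P26 was the same under all 4 alternatives, while the size was not. Scaling by total gene counts gave log2 ratios of -0.83 for brat, 1.01 for mei-P26, 0.17 for wech and 0.27 for pum. Scaling by the upper quartile gave -0.80, 1.04, 0.20 and 0.30 in the same order. The correction for length and level gave -1.14, 0.74, -0.036 and 0.0048, so the sign of wech turned, brat passed the 2-fold line and mei-P26 lost it. TMM scaling left all 4 within their intervals. The log2 ratio of wech minus that of brat was 1.10 after the correction, and the differences of mei-P26 and pum to brat stayed within their intervals. The count of at least 2-fold higher genes was 105, but 62 with total scaling, 191 after the correction and 57 with at least 100 counts. The count of lower genes was 410, but 236 after the correction and 99 with at least 100 counts. Shares per length moved with the transcript chosen, which was added after the data were seen. Alternatives for tn were not run, since the symbol was not listed. No paired analysis was possible because each group had 1 library. The counting intervals are narrow at these depths, and they cover neither the lack of replicates nor the trend of the ratio with length and level, whose cause was not tested.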
